A study of Mus musculus with 16 samples.

Results

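The HOPS and CORVET complexes are multi-subunit tethers that bring endosomes, autophagosomes and lysosomes into contact before their membranes fuse. The genes described here are Vps11, Vps16, Vps18 and Vps33a, which encode the core that both complexes share, Vps39 and Vps41 of HOPS, Tgfbrap1 and Vps8 of CORVET, and Vps33b and Vipas39. The last pair encodes homologs of VPS33A and VPS16 that form a separate complex, CHEVI, so that 8 of the 10 genes belong to HOPS or CORVET in the strict sense. They were chosen by name and not by a filter on their measured values, although earlier results of these data were known. The table that was analysed holds 55404 genes, and all 10 were in it and passed the filter on low values.

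Whole brain RNA was sequenced from 8 Tecpr2 ki/ki and 8 wt/wt mice, 1 library per mouse and 5 months old in both groups. Both Tecpr2 alleles of Tecpr2 ki/ki mice carry the L1152fs frameshift, which was edited in C57BL/6J zygotes and is present in all cells, whereas Tecpr2 is unedited in wt/wt mice. The study describes all as males, and none had been treated. TECPR2 binds HOPS subunits, and the comparison asks whether the mRNA of the tether changes in its absence.

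HOPS acts late and CORVET early in the endocytic pathway. In HOPS, VPS39 and VPS41 stand at the ends that contact GTPases of late endosomes and lysosomes, whereas TGFBRAP1 and VPS8 take these places in CORVET and contact RAB5 on early endosomes. The core is built around VPS11 and VPS18, which have RING domains, and around VPS16 with VPS33A, a Sec1/Munc18-type protein that clasps SNARE proteins as they zip together. In neurons these steps complete the degradation of cargo that arrives from axons and dendrites, and loss of function of several subunits causes neurological disease in humans.

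Values are linear normalized values from the authors, rounded to whole numbers, and carry no absolute unit. They added up to between 11964284 and 12252324 per mouse, so that the totals no longer showed the sequencing depth. From the whole numbers that scaling skipped or repeated among low values, between 9.23 and 14.3 megareads on genes were inferred for Tecpr2 ki/ki and between 10.1 and 15.4 megareads for wt/wt mice. Tecpr2 itself lay between 274 and 320 in Tecpr2 ki/ki and between 928 and 1002 in wt/wt mice; the label of each of the 16 libraries thus fitted its level. Summed markers of neurons, astrocytes, oligodendrocytes and microglia were far above 0 in every mouse, and the pituitary hormone genes Prl and Gh were at 0 in all. The summed level of 5 microglial markers ranged from 1752 to 1893 in Tecpr2 ki/ki and from 1580 to 1773 in wt/wt mice, and that of 3 astrocyte markers from 51943 to 54118 and from 49175 to 52311. That of 3 choroid plexus markers ranged from 3995 to 4623 and from 4486 to 5103. Most of the choroid plexus sum came from Ttr (mean 4364 in wt/wt mice) and most of the astrocyte sum from Slc1a2 (mean 43648). In limma's test 1 of the 5 microglial markers (Mpeg1) and 2 of the 3 astrocyte markers (Aqp4 and Slc1a2) had an adjusted p under 0.1. These were higher in Tecpr2 ki/ki mice. Of the choroid plexus markers 0 did, and 0.133% of all genes tested did. In whole brain, fewer cells of a type and less RNA per cell cannot be told apart, and the part of these markers in the values of the subunit genes was not tested.

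None of the 10 subunit genes passed the test for a difference between genotypes. In limma's test 0 of 10 had an adjusted p under 0.1, where 0.133% of the 23244 genes tested did (0.0946% with higher and 0.0387% with lower values in Tecpr2 ki/ki mice), and 0 of 10 had an unadjusted p under 0.01, where 1.56% did (0.701% with lower values). At an unadjusted p under 0.05 there were 2 of 10, Vps41 and Vps8, against 6.08% of all genes tested (3.07% higher, 3.01% lower). Vps8 was the higher and Vps41 the lower of these. The values of the genotypes overlapped for each of the 10 genes, and 0.0860% of all genes tested were without overlap. Mean levels were higher in Tecpr2 ki/ki mice for 5 genes and lower for 5. The median log2 fold change of the 10 genes was 0.0040 and the median of its absolute size 0.0243, compared with -0.00098 and 0.0558 over all genes tested. Many of the latter have low values and are therefore less precise.

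The intervals around these differences were narrow. For the 9 genes other than Vps33b, the 95% confidence intervals of the log2 fold change lay within -0.11 and 0.14, which on the linear scale is from -7.19% to 10.4%. For Vps33b, the gene with the fewest reads, the interval reached from -16.8% to 2.94%. The Benjamini-Hochberg adjusted p-values of limma's test lay between 0.762 and 0.999.

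**Figure D1:**
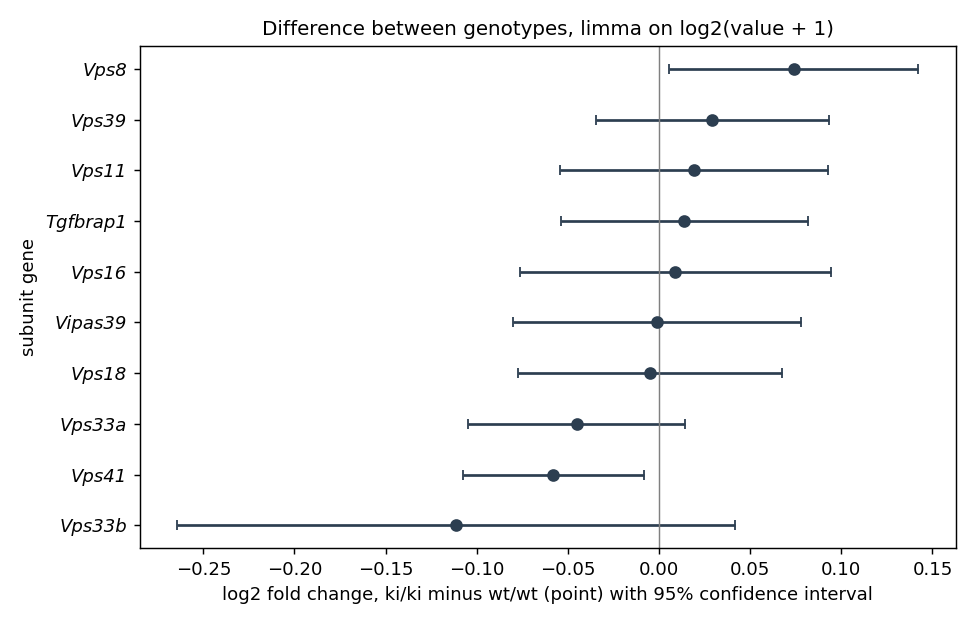
Log2 fold change of each subunit gene in Tecpr2 ki/ki relative to wt/wt mice on the x axis, with 95% confidence intervals from limma on log2(value + 1) and the genes on the y axis. The intervals of Vps41 (-0.11 to -0.01) and Vps8 (0.01 to 0.14) leave out 0 before adjustment for multiple testing, those of the other 8 genes include it, and Vps33b has the widest.

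Vps33a (ENSMUSG00000029434), which encodes the SNARE-binding subunit of the shared core, was measured with the best precision among the core genes. Its values were between 1015 and 1106 (median 1072) in Tecpr2 ki/ki and between 1020 and 1196 (median 1093.5) in wt/wt mice. The mean was 1070 ± 34.1 (SD, n = 8) against 1105 ± 60.6 (SD, n = 8), and 5 of 8 Tecpr2 ki/ki mice lay below the median of wt/wt mice. For Vps33a the fitted log2 fold change was -0.05 (standard error, SE, 0.0298, limma Benjamini-Hochberg adjusted p = 0.897). The wt/wt mice spread more widely than the Tecpr2 ki/ki mice, and the range of the latter fell almost wholly inside theirs.

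Vps16 (ENSMUSG00000027411), the gene of the subunit that holds VPS33A in the complex, ranged from 362 to 397 (median 376) in Tecpr2 ki/ki and from 347 to 411 (median 377.5) in wt/wt mice. The whole Tecpr2 ki/ki range lay inside that of wt/wt mice. For Vps16 the fitted log2 fold change was 0.0090 (SE 0.0427, limma Benjamini-Hochberg adjusted p = 0.989). In the annotation used here 2.92% of its exonic length is shared with Pced1a on the opposite strand.

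The genes of the RING-domain subunits varied more among Tecpr2 ki/ki than among wt/wt mice. Vps11 (ENSMUSG00000032127) lay between 586 and 722 (median 658.5) in Tecpr2 ki/ki and between 601 and 680 (median 657.5) in wt/wt mice. Vps18 (ENSMUSG00000034216) lay between 538 and 634 (median 584.5) in Tecpr2 ki/ki and between 563 and 617 (median 582) in wt/wt mice. For both genes Tecpr2 ki/ki mice held the lowest as well as the highest value of all 16 mice. Their log2 fold changes were 0.02 for Vps11 (SE 0.0369) and -0.0049 for Vps18 (SE 0.0361), with adjusted p-values of 0.974 and 0.992 (limma, Benjamini-Hochberg).

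**Figure D2:**
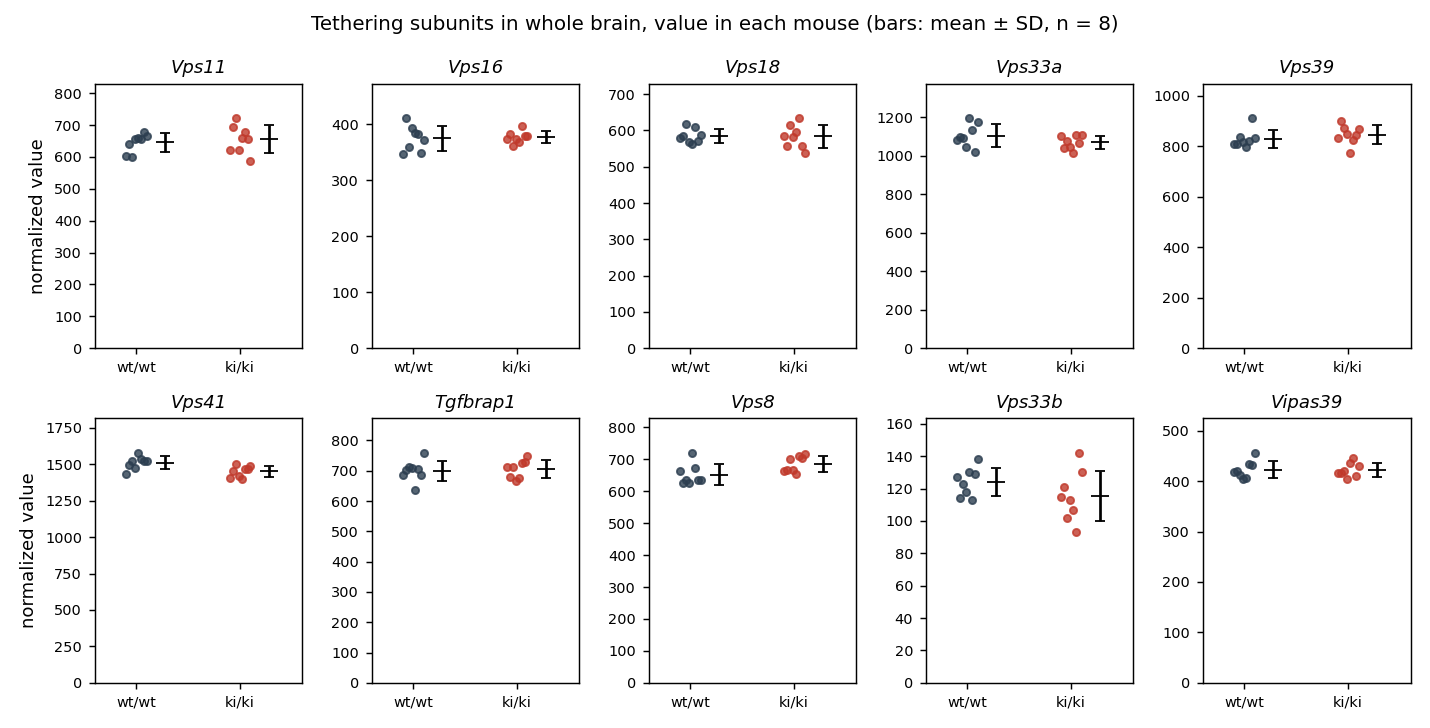
Normalized value of the 10 subunit genes in each mouse (y axes, each starting at 0) for wt/wt and Tecpr2 ki/ki mice, with 1 point per mouse and bars for mean ± SD (n = 8). The groups overlap in every panel; in Vps41 the Tecpr2 ki/ki points lie at 1401 to 1503 against 1431 to 1578, and in Vps8 at 655 to 716 against 626 to 720.

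Of the HOPS subunits, Vps41 (ENSMUSG00000041236) had the smallest p and the smallest standard error of the 10 genes. It lay between 1401 and 1503 (median 1460.5) in Tecpr2 ki/ki and between 1431 and 1578 (median 1520) in wt/wt mice. All 8 Tecpr2 ki/ki mice were below the median of wt/wt mice, and 3 of them were below every wt/wt mouse. The mean was 1451 ± 37.2 (SD, n = 8) against 1510 ± 43.5 (SD, n = 8), a log2 fold change of -0.06 (SE 0.0249). In limma p was 0.0230 before and 0.762 after Benjamini-Hochberg adjustment, and an exact two-sided permutation gave p = 0.0127. It corresponds to a change of -3.94% and did not pass the correction for the genes tested.

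Vps39 (ENSMUSG00000027291) lay between 775 and 901 (median 848) in Tecpr2 ki/ki and between 798 and 912 (median 818.5) in wt/wt mice. In 7 of 8 Tecpr2 ki/ki mice the value was above the median of wt/wt mice, yet Tecpr2 ki/ki mouse 5 was the lowest and wt/wt mouse 7 the highest of all. Vps39 had a fitted log2 fold change of 0.03 (SE 0.0319, limma Benjamini-Hochberg adjusted p = 0.934).

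Of the CORVET subunits, Vps8 (ENSMUSG00000033653) lay between 655 and 716 (median 684) in Tecpr2 ki/ki and between 626 and 720 (median 635.5) in wt/wt mice. All 8 Tecpr2 ki/ki mice exceeded the median of wt/wt mice, but none exceeded wt/wt mouse 5, which had 720. The mean was 685 ± 25.0 (SD, n = 8) against 651 ± 32.4 (SD, n = 8), a log2 fold change of 0.07 (SE 0.0342). Here p was 0.0343 in limma, 0.807 once adjusted (Benjamini-Hochberg) and 0.0315 by exact two-sided permutation. The difference of 5.26% likewise did not pass the correction, and its unadjusted p in limma rose above 0.05 when any of 9 of the 16 mice was left out (highest 0.0700).

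Tgfbrap1 (ENSMUSG00000070939), the CORVET counterpart of Vps39, was found at 665 to 749 (median 713.5) in Tecpr2 ki/ki and at 638 to 759 (median 704) in wt/wt mice. Tgfbrap1 had a fitted log2 fold change of 0.01 (SE 0.0340, limma Benjamini-Hochberg adjusted p = 0.979), and the range of Tecpr2 ki/ki mice lay inside that of wt/wt mice.

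The CHEVI genes did not stand apart from the others. Vipas39 (ENSMUSG00000021038), which lies on chromosome 12 like Tecpr2, was found at 405 to 446 (median 418.5) in Tecpr2 ki/ki and at 404 to 456 (median 420) in wt/wt mice. Vipas39 had a fitted log2 fold change of -0.00091 (SE 0.0396, limma Benjamini-Hochberg adjusted p = 0.999), the smallest of the 10 in size. Vps33b (ENSMUSG00000030534) lay between 93 and 142 (median 114) in Tecpr2 ki/ki and between 113 and 138 (median 125) in wt/wt mice. The fitted log2 fold change of -0.11 was the largest of the 10 in size, but so was its standard error of 0.0767 (limma with Benjamini-Hochberg adjusted p = 0.902). Tecpr2 ki/ki mice with Vps33b values below all wt/wt mice (3 of 8) stood beside 1 mouse above all of them.

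How much of this spread counting alone would give was calculated from the inferred depth. The variance between mice of a genotype was between 0.279 and 3.45 times the variance expected from read counting in the 10 genes, with a median of 1.34 over the 20 gene and genotype combinations. In 7 of the 20 it was at or below the counting variance. Over the 11241 tested genes with a mean value of at least 100, the median was 1.402 in Tecpr2 ki/ki and 1.45 in wt/wt mice. The largest ratio was that of Vps33a in wt/wt mice and the smallest that of Vps16 in Tecpr2 ki/ki mice. These ratios cover counting error only, and the inferred depth is an estimate.

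To compare levels between genes, values were divided by the exonic length of each gene in kilobases. The order in wt/wt mice was Vps33a, Vps41, Vps11, Vps18, Vipas39, Vps16, Vps39, Vps8, Tgfbrap1 and Vps33b, and it was the same in the means of Tecpr2 ki/ki mice. At the top stood Vps33a with 231 ± 12.6 (SD, n = 8) and Vps41 with 224 ± 6.46 (SD, n = 8) per kilobase in wt/wt mice. Their ranges overlapped, and Vps33a exceeded Vps41 in 6 of 8 wt/wt and in 8 of 8 Tecpr2 ki/ki mice. A clear gap separated them from Vps11 with 131 ± 5.92 (SD, n = 8) per kilobase.

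The middle of the order was close. Vps11 and Vps18 overlapped in their ranges per kilobase, as did Vipas39 with Vps16 and Vps16 with Vps39. The subunits of CORVET were lower, with 78.7 ± 3.91 (SD, n = 8) for Vps8 and 63.8 ± 3.08 (SD, n = 8) for Tgfbrap1 in wt/wt mice, and neither overlapped with its neighbours. Vps33b was lowest at 35.7 ± 2.49 (SD, n = 8) per kilobase, close to the median of 33.8 over the 22878 tested genes with a known length, whereas Vps33a was above 91.0% of them. The lengths come from an annotation of GRCm38 with all transcripts merged. With the longest transcript instead, Vps41 came first with 472 per kilobase and Vps39 moved to the third place, and Vps8 (129 per kilobase) and Tgfbrap1 (125) came before the core gene Vps16 (119), so the order of HOPS, CORVET and core genes depends on the transcript that is assumed.

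**Figure D3:**
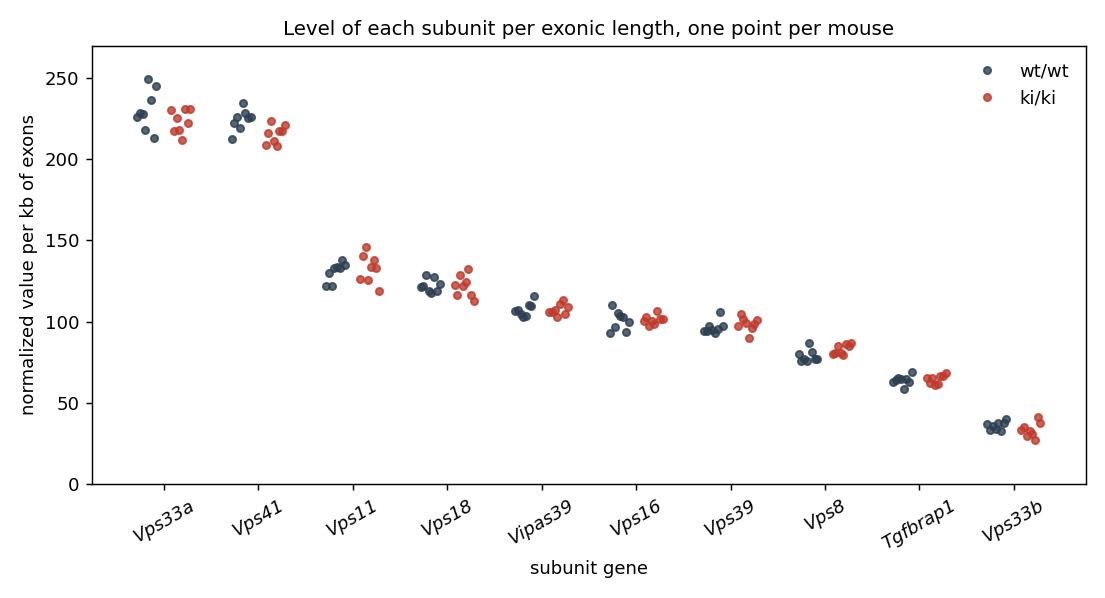
Normalized value per kilobase of exons (y axis, starting at 0) for each subunit gene in the order of the wt/wt means, with 1 point per wt/wt or Tecpr2 ki/ki mouse. Vps33a and Vps41 lie above 200 in all mice, the other core genes, Vipas39 and Vps39 between 90.1 and 146, and Vps33b is lowest.

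The mRNA levels of HOPS, CORVET and CHEVI subunits were compared as ratios per kilobase within each mouse. The pairs were set by homology or position in the complex after the values had been seen. Vps41 exceeded Vps8 by a factor of 2.54 to 2.69 (median 2.62) in Tecpr2 ki/ki and of 2.66 to 2.95 (median 2.92) in wt/wt mice. In 7 of 8 Tecpr2 ki/ki mice this ratio was lower than in any wt/wt mouse. The mean was 2.61 ± 0.0518 (SD, n = 8) against 2.86 ± 0.120 (SD, n = 8), a difference of -0.13 on the log2 scale. The ratio restates the opposite differences of Vps41 and Vps8 above. No test was made of it.

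For the other HOPS to CORVET pair the genotypes overlapped. Vps39 exceeded Tgfbrap1 by a factor of 1.45 to 1.69 (median 1.49) in Tecpr2 ki/ki and of 1.403 to 1.69 (median 1.49) in wt/wt mice, so that all Tecpr2 ki/ki mice lay inside the range of wt/wt mice. The ratio of Vps33a to Vps33b was between 5.43 and 8.62 in Tecpr2 ki/ki and between 5.73 and 7.28 in wt/wt mice. That of Vps16 to Vipas39 was between 0.893 and 0.973 against 0.852 and 1.03.

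**Figure D4:**
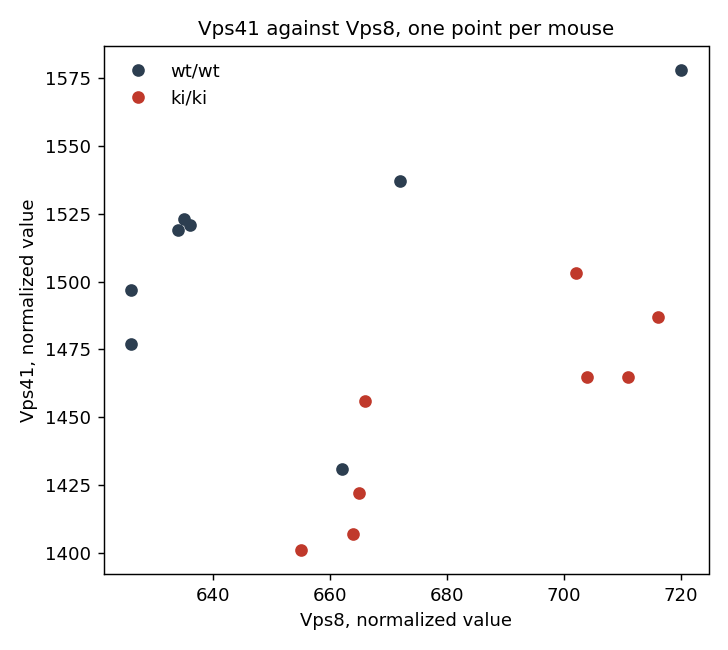
Normalized value of Vps41 (y axis) against that of Vps8 (x axis), with 1 point per mouse and axes that do not start at 0. The Tecpr2 ki/ki points lie toward the lower right of the wt/wt points, with ratios per kilobase of 2.54 to 2.69 against 2.66 to 2.95, and the wt/wt mouse with the lowest Vps41 value (1431) lies among them.

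Variation shared between subunits was described after the genotype means had been removed, over the 16 mice. Of the 45 pairs of genes 29 had a Pearson correlation above 0, and the median was 0.0914. The highest values were 0.652 for Vps8 with Vps33a, 0.631 for Vps8 with Vps41, 0.524 for Vipas39 with Tgfbrap1 and 0.516 for Vps41 with Vps33a. The lowest was -0.773, for Vps33b with Vps18. In wt/wt mouse 5 the values of Vps8 (720), Vps33a (1196) and Vps41 (1578) were the highest of all 16 mice. The correlations were not recalculated without this mouse. Values of a mouse share its library and scaling, so these numbers are a description of the 16 libraries. The highest correlation joined a CORVET gene with a core gene and the third a CHEVI gene with a CORVET gene.

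The genes whose profile over the 16 mice was most like the mean of the 6 HOPS genes, among 8533 with a mean value of at least 200, were Setd1a (Pearson r = 0.801), Nicn1 (0.775), Rpa1 (0.736), Wrn (0.730) and Rragd (0.727). Setd1a encodes a histone methyltransferase and Rragd a Rag GTPase of the lysosomal surface. The median correlation of all these genes was 0.0086, and 3.25% were above 0.5. The named genes were picked as the highest of 8533 correlations over only 16 mice, and whether they exceed chance was not tested. Pairs of the HOPS genes themselves had correlations from -0.311 (Vps39 with Vps16) to 0.516 (Vps41 with Vps33a). Their mean is therefore not a profile that all of them share, and the named genes cannot be read as a set of HOPS partners.

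Promoter sequence is shown for the 2 core genes whose windows hold the E-box CACGTG, the core of the element through which TFEB and related factors act on lysosomal genes, and for Vps41 and Vps8, the genes with the smallest p. RefSeq windows of GRCm38.p6, from 250 bases before to 50 after a start site, were at hand for 7 of the 10 genes (9 windows). The 150 bases that end just before the start site are given 5′ to 3′ on the strand of the gene, with matches to CACGTG and GGGCGG on either strand that lie wholly inside the stretch in capitals. Vps33a lies at chr5:123573016-123573165 on the minus strand, Vps16 at chr2:130424170-130424319, Vps41 at chr13:18717142-18717291 and Vps8 at chr16:21422968-21423117 on the plus strand.
Vps33a: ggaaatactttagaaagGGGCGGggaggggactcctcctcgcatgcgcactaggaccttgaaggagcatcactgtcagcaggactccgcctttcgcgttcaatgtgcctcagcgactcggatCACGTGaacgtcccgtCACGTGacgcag
Vps16: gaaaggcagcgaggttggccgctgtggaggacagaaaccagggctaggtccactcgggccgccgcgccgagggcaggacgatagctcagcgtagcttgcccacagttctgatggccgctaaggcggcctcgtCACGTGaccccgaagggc
Vps41: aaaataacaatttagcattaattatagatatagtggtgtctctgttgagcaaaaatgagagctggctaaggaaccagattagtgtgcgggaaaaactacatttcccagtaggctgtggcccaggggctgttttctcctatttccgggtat
Vps8: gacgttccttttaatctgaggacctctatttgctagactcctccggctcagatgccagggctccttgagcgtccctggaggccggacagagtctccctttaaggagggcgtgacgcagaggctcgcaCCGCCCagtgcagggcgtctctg

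Vps33a holds CACGTG 2 times, starting 28 and 12 bases before the start site, and Vps16 holds it 18 bases before. Another match, at the second of 2 start sites of Tgfbrap1, begins at the last base before the start site. Of the 9 windows, 3 hold CACGTG, compared with 7.15% of 32851 windows of the same length genome-wide, and 6 hold GGGCGG, compared with 35.7%. CCAAT and TATAAA, also searched on both strands, were in none of the 9 and in 37.4% and 13.6% of all windows. The sequences differ in base composition, with 58.7% G and C in the stretch of Vps33a and 41.3% in that of Vps41. A match describes letters in the window, not binding.

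Partners of the tethers were examined as 4 lists of 55 genes, 54 of which were matched in the table and tested. In limma's test 0 of these 54 had an adjusted p under 0.1, where 0.133% of all genes tested did. An unadjusted p under 0.01 was found for 1 of the 54, a share close to the 1.56% of all genes tested. The 3 genes with an unadjusted p under 0.05 make up a share close to the 6.08% of all genes tested. Log2 fold changes were above 0 for 22 and below 0 for 32 of the 54, with a median of -0.0049. Over all genes tested 49.5% were above 0. The lists were not tested as sets.

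Of the Rab and Arl GTPases and their exchange factors, 3 of 14 had higher and 11 had lower means in Tecpr2 ki/ki mice, with a median log2 fold change of -0.01. This list holds Rab5a, Rab5b and Rab5c, the GTPases of early endosomes, and Rab7, that of late endosomes. Their log2 fold changes were -0.0038 for Rab5a (SE 0.0330), 0.04 for Rab5b (SE 0.0238), -0.03 for Rab5c (SE 0.0309) and -0.02 for Rab7 (SE 0.0236). The largest difference of the list was that of Rab7b, a gene at very low values of 6 to 16 (median 11.5) in Tecpr2 ki/ki and 11 to 23 (median 16.5) in wt/wt mice. Rab7b had a fitted log2 fold change of -0.52 (SE 0.210, limma Benjamini-Hochberg adjusted p = 0.699).

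Of 12 effectors and adaptors, 8 were higher and 4 lower, with a median log2 fold change of 0.01. Plekhm2, which encodes an adaptor that links ARL8 on lysosomes to kinesin, had the smallest p among the partners. It lay between 1093 and 1237 (median 1133) in Tecpr2 ki/ki and between 997 and 1149 (median 1055.5) in wt/wt mice, and 3 of 8 Tecpr2 ki/ki mice were above all wt/wt mice. The fitted difference of Plekhm2 was 0.11 on the log2 scale (SE 0.0294), with p = 0.000504 in limma, adjusted p = 0.220 (Benjamini-Hochberg) and p = 0.00389 by exact two-sided permutation. Its relative Plekhm1, which binds HOPS directly, had a log2 fold change of 0.0033 (SE 0.0447). Rilp, an effector of RAB7 that recruits HOPS, had the largest difference of the list at -0.22 (SE 0.236, limma Benjamini-Hochberg adjusted p = 0.934), at values from 4 to 15 in Tecpr2 ki/ki and from 9 to 14 in wt/wt mice.

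Of 15 genes for SNAREs and their disassembly, 4 were higher and 11 lower, with a median of -0.01. The largest difference was that of Napb, a neuronal SNAP gene, with a log2 fold change of -0.09 (SE 0.0755, limma Benjamini-Hochberg adjusted p = 0.915). Napb varied widely within genotypes, from 2769 to 3502 (median 3202.5) in Tecpr2 ki/ki and from 2716 to 3827 (median 3368.5) in wt/wt mice. Stx17, the SNARE through which HOPS acts on autophagosomes, had a log2 fold change of 0.03 (SE 0.0490). BLOC-1 and BORC, complexes of lysosome positioning and biogenesis, had 7 of 13 genes higher and 6 lower, and a median of 0.0023. The largest difference was that of Bloc1s4, at 37 to 49 (median 40) in Tecpr2 ki/ki and 39 to 67 (median 47) in wt/wt mice, with a log2 fold change of -0.21 (SE 0.116, limma Benjamini-Hochberg adjusted p = 0.875).

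**Figure D5:**
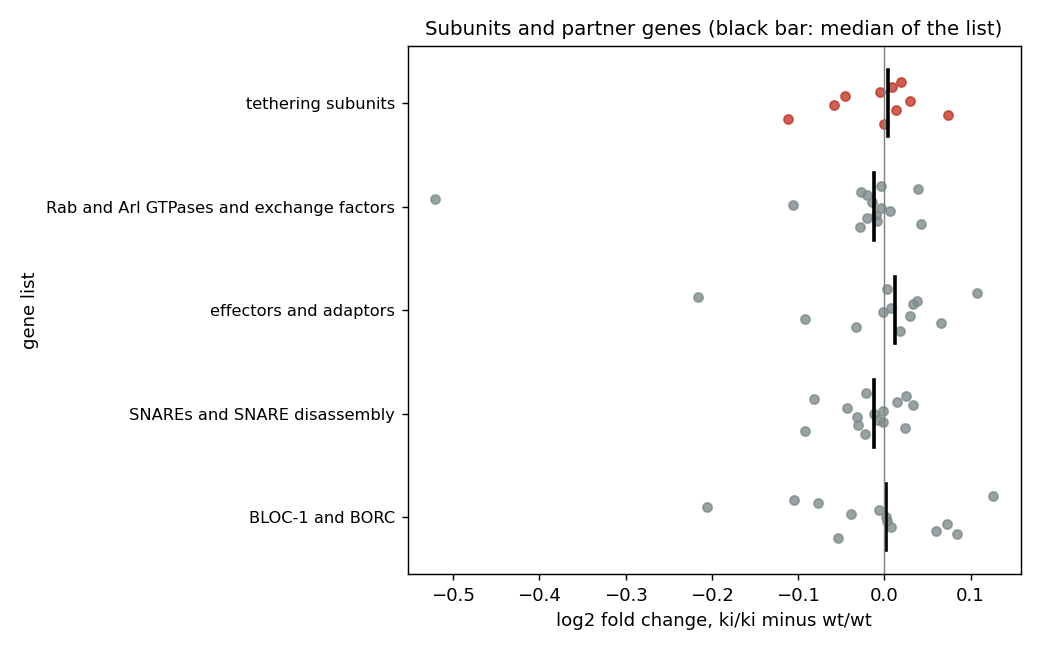
Log2 fold change of Tecpr2 ki/ki relative to wt/wt mice (x axis) for the 10 subunit genes and the 4 lists of partner genes (y axis), with 1 point per gene and a black bar at the median. The medians lie between -0.01 and 0.01, and Rab7b at -0.52, a gene of low values, lies farthest from 0.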

How the data were processed

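The authors prepared stranded total RNA libraries after ribosomal RNA depletion and, per their methods and the labels, trimmed reads with Trim Galore 0.6.10 and cutadapt 3.4, aligned them to GRCm39 with STAR 2.7.10b, counted them per gene with summarizeOverlaps and tested them with DESeq2 1.40.2. The values the authors deposited are treated as a score: they are linear, normalized in a way not given in the sources used here, and rounded to whole numbers. The series table was used, and its 16 columns were identical to the tables of single mice. Because values are not raw counts, no count test was run.

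Symbols were matched by Ensembl ID (52017 of 55404 genes) through GENCODE M21 of GRCm38, which also gave exonic lengths. Of the partner genes, Vamp7 was not matched. Genes were tested when their sum was over 16 and 4 or more mice of 1 genotype had values over 5, limits taken from the methods (23244 genes). Genotypes were compared with limma 3.58.1 in R 4.3.3 (trend, robust) on log2(value + 1), a scale that understates changes of low values, with Benjamini-Hochberg adjustment over all genes tested and a threshold of 0.1. Single genes were also compared by exact permutation over all 12870 splits of the mice, for which the smallest p is 0.000155. Labels number the libraries of each genotype from 1 to 8, and the methods give 8 mice per genotype, so 1 library was taken per mouse. Python 3.11.15 with numpy 2.4.6, scipy 1.17.1, pandas 2.3.3 and matplotlib 3.10.9 was used elsewhere. The depth factor of each library was estimated by maximum likelihood from its low values. The limma and depth steps were tested on simulated data.

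The members, gene lists and thresholds were chosen with earlier results of these data known. Named genes were the 10 subunits, Tecpr2, partners with an unadjusted p under 0.01, the partner with the largest absolute change of each list, and the 5 genes most like the HOPS profile; Rab5a, Rab5b, Rab5c, Rab7, Plekhm1 and Stx17 were named after their values had been seen. Alternatives were other pseudocounts, no filter, rescaling, other variance settings, array weights, a replicate block, leaving out mice and another gene length.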

Additional observations from a re-analysis of the deposited data

Results flagged for a closer look

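Of the 32 groups of 8 mice examined (16 genes in 2 genotypes), 2 held a mouse far from the rest, and chance gives about 1 in 20. For Vps39, wt/wt mouse 7 had 912, while the other wt/wt mice lay between 798 and 837. For Bloc1s4, wt/wt mouse 5 had 67, while the others lay between 39 and 52.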

How the results depend on the processing

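Standard errors of the log2 fold change were 0.0767 for Vps33b, the subunit gene with the lowest values, 0.210 for Rab7b and 0.236 for Rilp. The part of sequencing depth in these was not tested. None of the 10 subunits passed an adjusted p of 0.1 in any of 24 alternatives (lowest limma adjusted p 0.616), and 221 of 240 fold changes kept their direction. The other 19, each within 0.0148 of 0 on the log2 scale, were of Vipas39, with 0.0030 after scaling to equal totals and 0.0020 with array weights, and of genes under leaving out a mouse. There the log2 fold change ranged from -0.0011 to 0.0419 for Vps11, from -0.0065 to 0.0283 for Vps16, from -0.0223 to 0.0115 for Vps18, from -0.0049 to 0.0308 for Tgfbrap1 and from -0.0122 to 0.0148 for Vipas39. Among all genes, 31 had a limma adjusted p under 0.1, 20 without a filter, 16 without trend and robust estimation, and between 25 and 40 with a mouse left out. Of the 10 subunits, between 0 and 1 had an unadjusted p under 0.01 and between 1 and 2 under 0.05 with a mouse left out. Vps8 was no longer under 0.05 once a single mouse among Tecpr2 ki/ki 3, 6, 7, 8 and wt/wt 2, 3, 4, 7, 8 was removed, and Vps41 without mouse 5 of either genotype. Vps33b came under 0.05 without Tecpr2 ki/ki mouse 7 and Vps33a without wt/wt mouse 7. Under 0.01 were Vps41 without wt/wt mouse 1 and Vps8 without wt/wt mouse 5. Per kilobase of the longest transcript, levels in wt/wt mice moved to 261 for Vps33a, 472 for Vps41, 169 for Vps11, 144 for Vps18, 167 for Vipas39, 119 for Vps16, 189 for Vps39, 129 for Vps8, 125 for Tgfbrap1 and 48.2 for Vps33b.

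Mice of the 2 genotypes share replicate numbers. Log2 values of each mouse were taken as deviations from the mean of its genotype. They covered the 13765 tested genes with a mean value of at least 50. The correlation of these deviations between same-numbered mice was between -0.0393 and 0.149 over the 8 pairs and above 0.1 in 1. Of the 8 Tecpr2 ki/ki mice, 3 correlated best with their own number, and inferred depth was lowest for mouse 8 in both genotypes. These values cannot settle whether the numbers mark a pairing or a batch, and the main test took the mice as unpaired. A replicate block left 0 of 10 subunits at a limma adjusted p under 0.1 and 46 of all genes below it, compared with 31 without the block.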
